A study of Mus musculus with 22 samples.

Results

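The genotype by diet interaction of regulatory T cells (Tregs) was taken from 12 of 22 RNA-seq libraries, chosen by their diet and age labels: those on lean diet and those after 16 weeks on high fat diet, with 3 Bmal1 WT and 3 Bmal1 KO libraries at each. The interaction is the KO minus WT difference at 16 weeks less the same difference on lean diet, so a negative value means that KO fell relative to WT over the diet. Each library came from 1000 Foxp3YFP+ cells sorted in 2 rounds from visceral adipose tissue of male mice of the strain C57BL/6 Foxp3.Cre-YFP, taken at ZT0 (lights on). All groups, WT included, carried the Foxp3.Cre-YFP label, in which Cre is driven from the Treg gene Foxp3. The lean groups were 18 weeks old and fed LFD. The long-diet groups were 30 weeks old and had received lean diet for 14 weeks before 16 weeks of HFD, so diet and age cannot be told apart in any comparison over time. A further 6 libraries after 4 weeks of HFD, also 18 weeks old, were fitted with the 12 and set beside them. The labels do not say which part of Arntl was removed or that replicates were separate mice, so p values measure the spread between libraries, which may be technical.

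BMAL1, the product of Arntl, pairs with CLOCK or NPAS2 on E-boxes and drives the REV-ERB, PER and CRY repressors that close the circadian loop. Tregs of visceral fat are a resident population known for PPARG, the IL-33 receptor, amphiregulin and chemokine receptors, and obesity is known to reduce and remodel them. Immediate early genes encode short-lived transcription factors, kinase phosphatases and RNA decay factors that T cells switch on within minutes of stimulation.

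Total counts were 1955940 to 2804378 in the lean libraries and 2514816 to 3467019 at 16 weeks, and genes with at least 1 count numbered 18898 to 19535 and 20547 to 23400. Depth and gene number therefore moved with diet, and their part in the diet responses was not tested. The 6 Treg-defining markers, Foxp3, Il2ra, Ctla4, Ikzf2, Cd4 and Cd3e, summed to 3917 to 4686 CPM, the TMM-scaled count relative to library size, in all 12 libraries. Of the other cell types, B cell markers summed to 324 to 494 CPM in lean libraries, 389.5 to 956 CPM in WT and 794 to 1269 CPM in KO at 16 weeks. Nearly all of that sum was Ighm, while Ms4a1 and Ebf1 were between 0 and 2.28 CPM. Cd79b was at 26.8, 17.7 and 14.9 CPM in KO at 16 weeks, against 1.88 to 18.3 CPM in the other groups of the 12. Dendritic cell and class II markers summed to 122 to 194 CPM in KO at 16 weeks, against 58.5 to 169 CPM. Of them Cd74 was higher there, at 91.7 to 134 CPM against 11.3 to 84.7 CPM. H2-Eb1 was lower, at 11.95 to 17.9 CPM against 19.5 to 49.4 CPM, and the other members overlapped. The part of these markers in the results was not tested. Stromal markers summed to 134.5 CPM in KO 16-week replicate 1 and to at most 11.9 CPM in the other 11 libraries, and endothelial markers to 126 to 223 CPM in KO at 16 weeks against 43.4 to 164 CPM elsewhere. Most of the endothelial sum was Pecam1, at 111 to 145.5 CPM in KO at 16 weeks against 39.0 to 159 CPM. Cldn5 was at 38.9, 11.2 and 5.64 CPM in KO at 16 weeks and at most 2.40 CPM in the other groups of the 12. Cdh5, near the limit of detection, was at 0.995 to 2.70 CPM there and at most 0.701 CPM in those groups. The remaining members overlapped, and the part of such cells was not tested. Cytotoxic markers, which include Gzmb, summed to 151 to 171 CPM in KO at 16 weeks and 185 to 764 CPM in the other groups. Replicate pairs of WT at 16 weeks differed most by chi-square per degree of freedom, at 8.57 to 12.1 against 4.22 to 7.12 in the other groups of the 12. That measure also depends on depth, and these libraries held 2872201 to 3467019 counts. Their Pearson correlations in log2 CPM were 0.940 to 0.948, overlapping the 0.945 to 0.959 of the other groups. By chi-square these values were 12.1 for WT 16-week replicates 1 and 2, 9.32 for 2 and 3, and 8.57 for 1 and 3. Replicate 1 of WT at 16 weeks stood apart in some programs below and replicate 2 in others.

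No gene passed the interaction test. Of 11698 genes tested with the edgeR quasi-likelihood test and Benjamini-Hochberg adjustment, 0% were called at an adjusted p under 0.05, and the smallest adjusted p was 0.123. At an unadjusted p under 0.05 there were 993 genes (8.49%), 445 with a positive interaction (3.8%) and 548 with a negative one (4.68%). DESeq2 called 26 genes, 7 positive and 19 negative. Leaving out WT 16-week replicate 1 gave 36 calls and leaving out WT lean replicate 1 gave 15, while leaving out each of the other 10 libraries gave 0. The named genes below are those with the smallest interaction p in each direction, and their interactions did not pass adjustment over all genes.

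The diet responses that make up the interaction differed in how many genes passed the test. In WT, 10 genes (0.0855%) differed between 16 weeks and lean diet, 3 higher (0.0256%) and 7 lower (0.0598%). The higher ones were the lymphotoxin gene Ltb, Pdcd1 and the costimulatory receptor gene Tnfrsf9, with log2 values of 0.72, 1.27 and 1.48. The lower ones included Ahnak, Crip1, Fosb, Srebf2 and the granzyme gene Gzmb, by -0.89 (Ahnak) to -2.27 (Gzmb). In KO, 696 genes (5.95%) did, 276 higher (2.36%) and 420 lower (3.59%). These counts do not test the difference between genotypes, which is the interaction. The WT and KO responses share no library, and 9 of the 10 WT calls (90%) were also called in KO with the same sign, which is 1.29% of the KO calls. Of the 696 genes called in KO, 615 (88.4%) had the same sign in WT, with a WT median log2 of 0.39 for those higher in KO and -0.33 for those lower, against 1.11 and -1.14 in KO. Those genes were chosen by their KO values, so the larger KO medians support nothing. Over all genes the median size of the log2 diet response was 0.21 in WT and 0.28 in KO. The KO count fell to 384 and 373 without KO 16-week replicate 1 or 3 and to 396 and 411 without KO lean replicate 1 or 2. The WT count was 3 without lean replicate 1, 5 without lean replicate 3, 5 without 16-week replicate 1 or 3, and 28 without 16-week replicate 2.

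Immediate early genes held 4 of the 8 smallest p values on the negative side (Fos, Egr1, Jun and Cd69). As a group they were high in lean KO Tregs and low in KO Tregs after the long diet. All 27 listed genes passed the filter on low counts. Of them 18 fell with diet in KO and 1, Fosb, fell in WT, where all genes gave 3.59% and 0.0598%. The interaction was negative for 26 of 27, with a median log2 of -0.92 against -0.01 over all genes, and 19 (70.4%) had an unadjusted p under 0.05 in that direction, against 4.68% of all genes. None passed adjustment. Without WT lean replicate 1, 6 members passed (Fos, Egr1, Cd69, Dusp1, Jun and Zfp36), and without WT 16-week replicate 1, 4 did (Fos, Egr1, Jun and Cd69). The list mean in log2 CPM was 8.71, 8.78 and 8.72 in the lean KO libraries and 7.49, 7.56 and 7.61 in the 16-week KO libraries. In WT it was 8.52, 7.96 and 8.24 on lean diet and 7.85, 8.09 and 8.11 at 16 weeks. Every KO library thus lay above every WT library on lean diet and below every WT library at 16 weeks. In these bulk samples, fewer cells with active transcription of a gene and less RNA of it per cell cannot be told apart. Heat shock genes, which respond to unfolded protein, had a median interaction of 0.01, with 0 of 19 at an unadjusted p under 0.05. Lean KO replicate 1 had a heat shock sum of 10010 CPM against 6751 to 7066 in the other lean libraries. Without that library 18 immediate early genes again fell in KO and the interaction had an unadjusted p under 0.05 in 16.

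**Figure D1:**
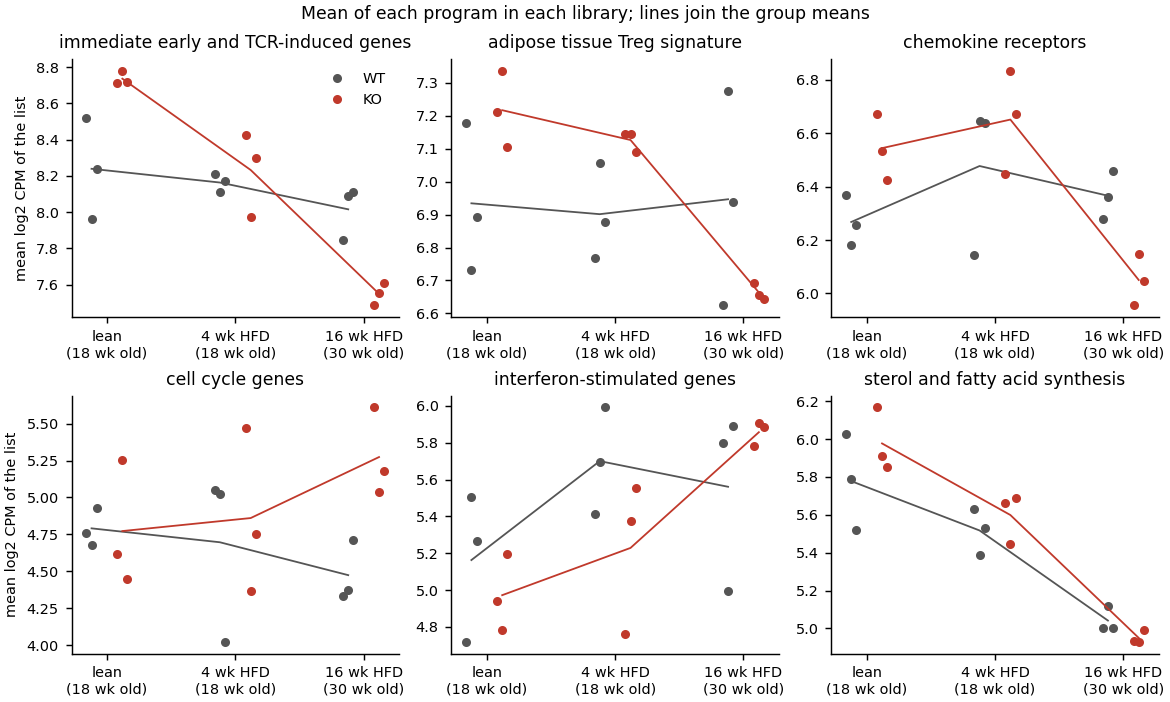
Mean log2 CPM of the measured members of 6 programs (vertical axis) in each of 18 libraries by diet and age (horizontal axis), with points for libraries, lines joining the group means, WT in grey and KO in red. The immediate early panel shows KO above WT on lean diet and below WT at 16 weeks, while the sterol panel shows both genotypes lower at 16 weeks.

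Fos, a subunit of the AP-1 transcription factor on chromosome 12 (85473890 to 85477273, plus strand, mm10), showed the smallest interaction p of all genes. Fos was at 3105, 1293 and 1853 CPM in the lean WT libraries and at 1018, 1392 and 1674 CPM in the 16-week WT libraries. The KO libraries held 4663, 3707 and 4156 CPM on lean diet and 759.5, 929.8 and 813 CPM at 16 weeks. All 3 KO libraries lay above WT on lean diet and below WT at 16 weeks, and the interaction was log2 -1.71 ± 0.32, adjusted p = 0.123. Taken by genotype, the diet log2 was -0.61 ± 0.22 in WT (adjusted p = 0.379) and -2.32 ± 0.23 in KO (adjusted p = 6.13e-06). Its AP-1 partner Jun (chromosome 4, 95049034 to 95052222, minus strand) overlaps the antisense gene Junos, whose reads an unstranded library does not separate. Jun was at 529, 307 and 410.1 CPM in the lean WT libraries and at 328, 296 and 489 CPM in the 16-week WT libraries. On lean diet KO was at 1057, 718 and 804 CPM, and at 16 weeks it was at 184, 319.6 and 219 CPM. The lean KO values lay above all lean WT values, and 1 KO library at 16 weeks overlapped WT. The interaction of Jun was log2 -1.67 ± 0.33, adjusted p = 0.123.

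Egr1, a zinc finger factor induced by MAP kinase signalling, lies on chromosome 18 (34859823 to 34864984, plus strand). Egr1 was at 908, 327 and 528 CPM in the lean WT libraries and at 267, 372 and 339.5 CPM in the 16-week WT libraries. Without Bmal1 the values were 1080, 1773 and 1477 CPM on lean diet and 172, 188 and 259 CPM at 16 weeks. The genotypes did not overlap in either diet and their order was reversed, with an interaction of log2 -1.95 ± 0.37, adjusted p = 0.123. The surface protein CD69 marks recently activated T cells and retains them in tissue by opposing S1PR1. Cd69 was at 1098, 639.7 and 795 CPM in the lean WT libraries and at 529.7, 599 and 581 CPM in the 16-week WT libraries. In KO it was at 1304, 1245 and 1531 CPM on lean diet and at 366, 442 and 453 CPM at 16 weeks. This gene also crossed without overlap, and the interaction was log2 -1.13 ± 0.23, adjusted p = 0.123. On the diet axis, the diet log2 was -0.57 ± 0.16 in WT (adjusted p = 0.207) and -1.69 ± 0.17 in KO (adjusted p = 5.15e-06).

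Further members of the list followed in the same direction. Dusp1, which inactivates MAP kinases, had group means of 7749 ± 504 CPM (SD, n = 3) in lean KO and 3329 ± 161 CPM in KO at 16 weeks, against 5277 ± 1521 and 4299 ± 849 CPM in WT. Its interaction was log2 -0.92 ± 0.23, adjusted p = 0.236. Zfp36, which directs AU-rich messages to decay, had an interaction of log2 -1.39 ± 0.35, adjusted p = 0.242, and the diet log2 was -0.45 ± 0.25 in WT (adjusted p = 0.635) and -1.84 ± 0.26 in KO (adjusted p = 0.00021). The antiproliferative factor Btg2 had an interaction of log2 -0.87 ± 0.20, adjusted p = 0.173, and the zinc finger factors Klf4 and Klf6 had log2 -1.53 ± 0.39 and -1.13 ± 0.28. Fos, Egr1, Cd69, Dusp1 and Klf4 had every KO library above every WT library on lean diet and below every WT library at 16 weeks, which is 5 of 27 members against 53 of all genes tested (0.453%). The reverse crossing was found in 54 genes (0.462%), none of them on the list. At the other end, the nuclear receptor gene Nr4a2, the factor Egr2 and Myc had interactions of 0.29 ± 0.41, -0.27 ± 0.43 and -0.26 ± 0.25.

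Promoters of these genes are shown because 18 members fell together in KO. RefSeq promoters (build GRCm38.p6, 250 bases before the start) were matched for 21 of 27 members and searched on both strands, each motif separately so that overlapping matches count for each. The core of the cyclic AMP response element, TGACGT, was in 7 of 21 (33.3%) against 7.29% of the 27025 genes with a promoter. The CArG box of serum response factor was in 3 (14.3%) against 1.62%, and the E-box CACGTG, the site class of BMAL1, was in 5 (23.8%) against 6.86%. CCAAT was in 8 (38.1%) against 37.5%. Among the other lists, the E-box share ran from 0% (adipose Treg signature) to 33.3% (BMAL1-driven clock genes). It was 26.7% for apoptosis and p53 targets and 22.7% for glycolysis, and TGACGT was in 23.3% of matched ribosomal protein promoters. The E-box share is thus not particular to the immediate early list. A match describes these letters and is neither a bound site nor a cause. In the sequences, 5′ to 3′ on the gene's strand, capitals mark TGACGT in Fos (chr12:85473640-85473889, plus strand), TGACGT and CACGTG in Dusp1 (chr17:26508473-26508722, minus strand) and the CArG box in Zfp36 (chr7:28379229-28379478, minus strand).
Fos: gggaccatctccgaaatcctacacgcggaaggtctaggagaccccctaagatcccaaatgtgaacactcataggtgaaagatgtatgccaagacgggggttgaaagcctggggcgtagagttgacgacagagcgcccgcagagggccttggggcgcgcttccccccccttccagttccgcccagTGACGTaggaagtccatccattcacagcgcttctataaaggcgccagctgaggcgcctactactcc
Dusp1: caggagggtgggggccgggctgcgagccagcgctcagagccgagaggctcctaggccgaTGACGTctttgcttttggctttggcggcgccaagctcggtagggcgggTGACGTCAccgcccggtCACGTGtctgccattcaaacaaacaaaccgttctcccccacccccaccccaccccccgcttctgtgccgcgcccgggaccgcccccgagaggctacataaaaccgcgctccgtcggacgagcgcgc
Zfp36: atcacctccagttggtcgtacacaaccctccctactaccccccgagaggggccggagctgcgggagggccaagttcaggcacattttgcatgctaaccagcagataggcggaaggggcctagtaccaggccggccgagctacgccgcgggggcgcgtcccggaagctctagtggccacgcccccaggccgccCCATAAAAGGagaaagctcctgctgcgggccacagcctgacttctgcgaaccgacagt

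**Figure D2:**
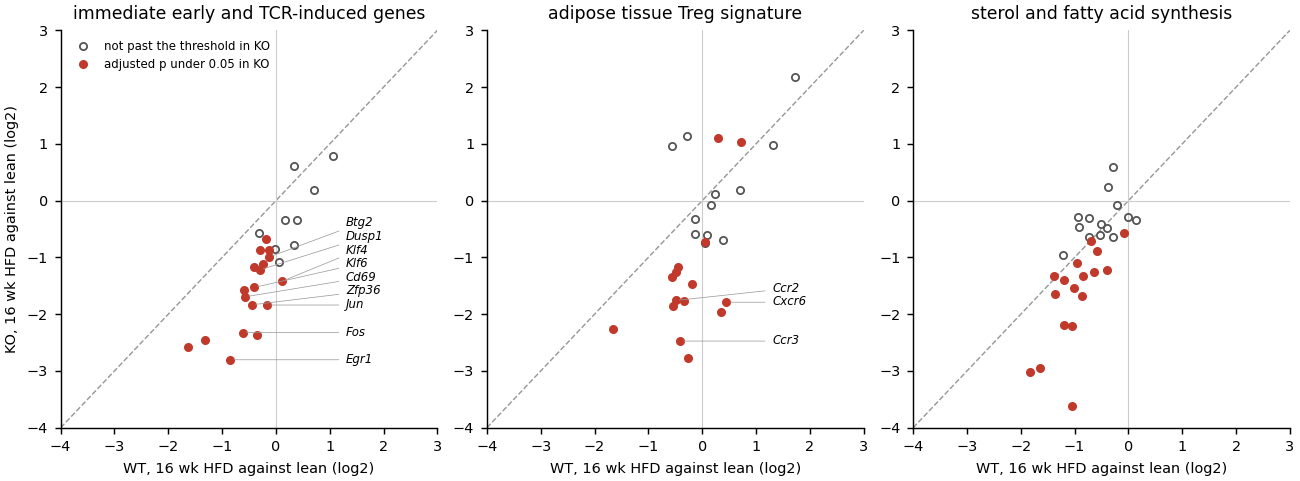
Diet response in WT (horizontal axis, log2 of 16 weeks against lean) against that in KO (vertical axis, log2) for the measured members of 3 lists, with filled points for genes at an adjusted p under 0.05 in KO, a dashed line of equal response, and names for genes among the 50 smallest interaction p values. Most immediate early and adipose Treg genes lie below the line, with 18 and 15 filled points shown, and 1 adipose Treg gene, Cd36, lies above the plotted range.

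Genes of the adipose tissue Treg signature fell in KO over the long diet, and none of them passed the test in WT. Of 28 measured members, 13 fell and 3 rose in KO, where 3.59% and 2.36% of all genes did, the last being Dusp4, Ptger2 and the lipid transporter gene Cd36. Cd36 stood at 48.9 ± 60.8 CPM (SD, n = 3) in KO at 16 weeks, so its SD exceeded its mean. Adipocyte markers summed to 46.2 ± 24.5 CPM there against 29.8 ± 7.84 CPM in WT. Of these, Fabp4 was at 54.25, 9.25 and 9.95 CPM in KO and at most 4.83 CPM in WT. Adipoq was at most 1.93 CPM in KO, and Lep and Retn were at 0. KO 16-week replicate 1, with the highest Fabp4, also had the highest endothelial and stromal sums, 223 and 134.5 CPM. The part of other cells in the Cd36 value was not tested. The median diet log2 was -0.04 in WT and -0.71 in KO, and the median interaction was -0.71, with 12 members at an unadjusted p under 0.05 below 0 (42.9%, against 4.68% of all genes) and 3 above it (10.7%, against 3.8%). List means were 7.21, 7.34 and 7.10 log2 CPM in lean KO and 6.69, 6.66 and 6.64 in KO at 16 weeks. In WT they were 7.18, 6.73 and 6.89 on lean diet and 6.62, 7.28 and 6.94 at 16 weeks. The 16-week WT libraries spread widely, and replicate 1 lay at the level of the KO libraries. The fallen count was 8 without KO lean replicate 2 and 9 to 14 without each other library. With WT 16-week replicate 1 left out, 5 members passed the interaction test: Ccr3, Ccr2, Cxcr6, Il10 and Klrg1.

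The chemokine receptor genes Ccr3, Cxcr6 and Ccr2 had the smallest interaction p values of that signature. Ccr3, the eotaxin receptor, lies on chromosome 9 (124021972 to 124031689, plus strand). Ccr3 was at 212, 145 and 151 CPM in the lean WT libraries and at 69.7, 156 and 156 CPM in the 16-week WT libraries. The KO libraries held 199, 190.3 and 128 CPM on lean diet and 24.2, 29.7 and 38.8 CPM at 16 weeks. On lean diet the genotypes overlapped, and at 16 weeks every KO library was below every WT library. The interaction was log2 -2.06 ± 0.41, adjusted p = 0.123. KO against WT passed the test at 16 weeks (log2 -2.03 ± 0.30, adjusted p = 0.00368), 1 of 5 genes (0.0427%) called in that comparison (with Cry1, Nr1d1, Nr1d2 and Per3), 1 higher (0.00855%) and 4 lower (0.0342%). Without WT 16-week replicate 1 that comparison called 35 genes and without KO lean replicate 1 it called 9. Cxcr6, the receptor of CXCL16, lies near it (123806475 to 123811760) and overlaps Fyco1 on the opposite strand. Cxcr6 was at 1204, 589.8 and 530.3 CPM in the lean WT libraries and at 574, 1101 and 1505 CPM in the 16-week WT libraries. On lean diet KO was at 1167, 2062 and 1171 CPM, and at 16 weeks it was at 374, 528 and 371 CPM. Its interaction was log2 -2.24 ± 0.49, adjusted p = 0.133.

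Ccr2, the receptor of the monocyte chemokine CCL2, showed a fall in KO and overlapping WT groups. Ccr2 was at 839.5, 529 and 568 CPM in the lean WT libraries and at 308, 622 and 451 CPM in the 16-week WT libraries. Without Bmal1 the values were 892, 856 and 805 CPM on lean diet and 208, 269 and 277 CPM at 16 weeks. The interaction was log2 -1.27 ± 0.31, adjusted p = 0.195. Ccr9 had the values 97.6, 40.5 and 56.0 CPM in lean WT, 63.7, 74.9 and 126 CPM in WT at 16 weeks, 116, 178 and 92.3 CPM in lean KO and 20.5, 55.1 and 25.2 CPM in KO at 16 weeks. It overlaps several genes on both strands, and its interaction was log2 -2.38 ± 0.60, adjusted p = 0.242. Over 14 measured chemokine receptors, 6 fell in KO (among them Ccr1, Ccr2, Ccr3, Ccr9 and Cxcr6), 1 rose (Cxcr5) and none passed in WT. Of all genes 3.59% fell and 2.36% rose in KO, and 0.0598% fell and 0.0256% rose in WT. The same 6 had a negative interaction at an unadjusted p under 0.05, against 4.68% of all genes, with a list median of -0.67. Ccr1, Ccr2, Ccr3 and Cxcr6 are also members of the adipose Treg signature, so the counts of these lists are not separate. The fallen count was 3 without KO lean replicate 2 or without KO 16-week replicate 1 or 3. The list median was -1.08 without WT lean replicate 1, -0.37 without WT lean replicate 3 and -0.35 without WT 16-week replicate 3.

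Il10 encodes the suppressive cytokine interleukin 10. Il10 was at 259, 263 and 213 CPM in the lean WT libraries and at 96.7, 393 and 452 CPM in the 16-week WT libraries. In KO it was at 279.7, 604 and 579 CPM on lean diet and at 151, 128 and 95.5 CPM at 16 weeks. The WT value at 16 weeks was low in replicate 1 and high in the other 2 replicates, while the KO libraries were all low, and the interaction was log2 -2.32 ± 0.65, adjusted p = 0.314. Klrg1, an inhibitory receptor of terminally differentiated cells, was at 1512, 1518 and 1521 CPM in lean KO and at 340.2, 591 and 411 CPM in KO at 16 weeks. In WT it was at 1588, 748 and 978 CPM and 449.8, 1357 and 806 CPM, and the groups overlapped. Its interaction was log2 -1.42 ± 0.42, adjusted p = 0.314. The lineage factors Pparg, Gata3 and Irf4 fell in KO by 2.26, 0.73 and 1.34 on the log2 scale. Il1rl1, the IL-33 receptor, and Areg, the growth factor amphiregulin, fell in KO by 1.25 and 1.17. These falls are within KO and do not by themselves compare the genotypes. For Pparg the WT diet log2 was -1.65 ± 0.44 (adjusted p = 0.183) and the interaction -0.61 ± 0.62.

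Of 13 measured resting and lymphoid tissue T cell genes, 3 rose in KO (Tcf7, S1pr1 and Lef1), against 2.36% of all genes, and none in WT, against 0.0256%. Tcf7, a factor of naive and memory-like T cells, illustrates the spread in WT. Tcf7 was at 59.1, 109 and 104 CPM in the lean WT libraries and at 218, 61.8 and 98.1 CPM in the 16-week WT libraries. The KO libraries held 42.2, 68.8 and 47.6 CPM on lean diet and 178, 162 and 166 CPM at 16 weeks. The KO groups did not overlap, and WT 16-week replicate 1 was the top of all 12 libraries. The list mean was 6.87, 5.26 and 5.65 log2 CPM in the 16-week WT libraries against 6.07, 6.11 and 6.13 in KO. The median interaction of the list was 0.06 over all libraries, 1.08 without that WT library and -0.26 without WT 16-week replicate 2. The sign of this list therefore depended on single WT libraries.

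Foxp3, the factor that defines Tregs, had a diet log2 of -0.17 ± 0.11 in WT and 0.01 ± 0.11 in KO, and an interaction of 0.18 ± 0.15. Of 19 measured genes of core Treg identity, 5 rose in KO (Nrp1, Ikzf4, Nt5e, Izumo1r and Icos), 2 fell (Il2ra and Capg) and none passed in WT, against 2.36% of all genes risen and 3.59% fallen in KO, and the median interaction was 0.11. Among 9 co-inhibitory receptors, Pdcd1, encoding PD-1, rose in WT. Pdcd1 was at 420.2, 361 and 261 CPM in the lean WT libraries and at 709.7, 777 and 1035 CPM in the 16-week WT libraries. On lean diet KO was at 363, 636 and 421 CPM, and at 16 weeks it was at 702, 633 and 629 CPM. The WT groups did not overlap, and the diet log2 was 1.27 ± 0.20 in WT (adjusted p = 0.00881) and 0.47 ± 0.19 in KO (adjusted p = 0.167). Its interaction was log2 -0.80 ± 0.27, adjusted p = 0.402. In KO, Klrg1 and Cd200r1 fell while Btla and Vsir rose.

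**Figure D3:**
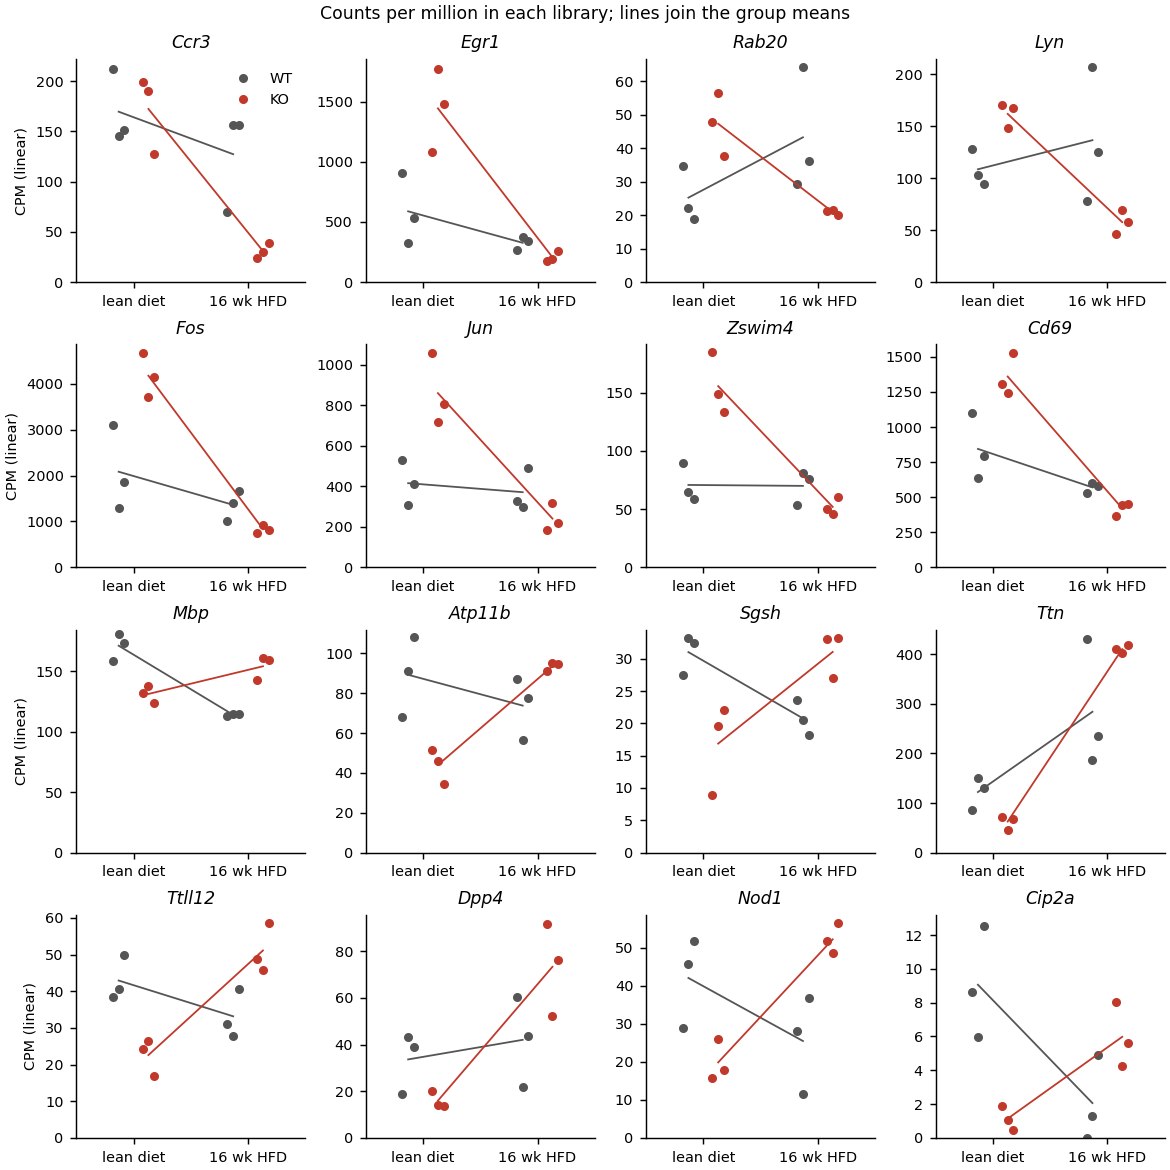
CPM (linear vertical axes starting at 0) of the 8 genes with the smallest interaction p in each direction, by diet, with points for libraries, lines joining group means, WT in grey and KO in red. In the upper 8 panels KO falls, while the WT mean falls less or, for Lyn and Rab20, rises. In the lower 8 panels KO gains relative to WT.

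Outside the lists, Zswim4 had the second smallest negative interaction p. Zswim4 was at 89.4, 64.4 and 58.4 CPM in the lean WT libraries and at 53.2, 80.7 and 76.0 CPM in the 16-week WT libraries. Without Bmal1 the values were 184, 148 and 134 CPM on lean diet and 49.9, 45.9 and 60.0 CPM at 16 weeks. The WT diet log2 was -0.02 ± 0.21, while KO fell from above WT to values overlapping it, with an interaction of log2 -1.56 ± 0.29, adjusted p = 0.123. KO against WT passed on lean diet (log2 1.14 ± 0.21, adjusted p = 0.0462), where 5 genes (0.0427%) were called (with Cry1, Npas2, Nr1d1 and Nr1d2), 3 higher (0.0256%) and 2 lower (0.0171%). Without WT lean replicate 1 that comparison called 11 genes. Lyn, a kinase of the Src family, went from 169.9, 148 and 167 CPM to 45.8, 69.0 and 58.0 CPM in KO and from 128, 103 and 94.2 CPM to 78.2, 206 and 125 CPM in WT. Rab20, a small GTPase of membrane traffic, went from 47.8, 56.4 and 37.7 CPM to 21.3, 21.6 and 19.9 CPM in KO and from 34.6, 22.2 and 18.8 CPM to 29.3, 64.3 and 36.1 CPM in WT. For both genes the genotypes crossed without overlap, with interactions of log2 -1.82 ± 0.38, adjusted p = 0.126 for Lyn and log2 -1.95 ± 0.40, adjusted p = 0.123 for Rab20. Both overlap genes on the opposite strand.

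In the positive direction the smallest p belonged to Ttll12, a member of the tubulin tyrosine ligase-like family on chromosome 15 (83575090 to 83595157, minus strand). Ttll12 was at 38.5, 40.5 and 49.8 CPM in the lean WT libraries and at 31.0, 27.9 and 40.6 CPM in the 16-week WT libraries. In KO it was at 24.3, 26.6 and 16.9 CPM on lean diet and at 48.8, 45.9 and 58.7 CPM at 16 weeks. KO lay below WT on lean diet and above it at 16 weeks without overlap, and the interaction was log2 1.55 ± 0.31, adjusted p = 0.123. Atp11b, a phospholipid flippase, crossed likewise, from 51.5, 46.1 and 34.4 CPM to 90.9, 95.2 and 94.5 CPM in KO and from 68.3, 91.3 and 108 CPM to 87.3, 56.6 and 77.4 CPM in WT, with an interaction of log2 1.36 ± 0.32, adjusted p = 0.184. Nod1, a sensor of bacterial peptidoglycan, had 15.7, 26.0 and 17.9 CPM in lean KO and 51.7, 48.6 and 56.4 CPM in KO at 16 weeks. Its WT values were 28.9, 45.6 and 51.7 CPM and 28.1, 11.5 and 36.8 CPM, also without overlap between genotypes, and the interaction was log2 2.13 ± 0.54, adjusted p = 0.242.

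Dpp4, the peptidase CD26, rose in KO from 20.2, 14.1 and 13.7 CPM to 91.6, 52.0 and 76.3 CPM, and in WT it was at 18.8, 43.1 and 39.1 CPM and 60.6, 21.8 and 43.8 CPM. Its interaction was log2 1.86 ± 0.47, adjusted p = 0.242. Ttn, the gene of the muscle protein titin, rose in KO (log2 2.70 ± 0.29, adjusted p = 1.12e-05), with all KO values at 16 weeks between 402 and 418 CPM. In WT it was higher at 16 weeks in every library, at 430.5, 186 and 236 CPM against 85.6, 150.1 and 131 CPM, without passing the test. Mbp, which gives myelin basic protein and golli transcripts, was at 159, 181 and 173 CPM in lean WT and 113, 115 and 114 CPM in WT at 16 weeks, and at 132, 138 and 124 and 143, 160.4 and 159 CPM in KO. Its genotypes crossed with little spread, although the change was small (interaction log2 0.82 ± 0.21, adjusted p = 0.242). The lysosomal sulfatase gene Sgsh had an interaction of log2 1.48 ± 0.38, adjusted p = 0.26 and also crossed. Cip2a, an inhibitor of the phosphatase PP2A, had log2 4.45 ± 1.13, adjusted p = 0.242, from values of 0 to 12.6 CPM in the 12 libraries, near the limit of detection.

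**Figure D4:**
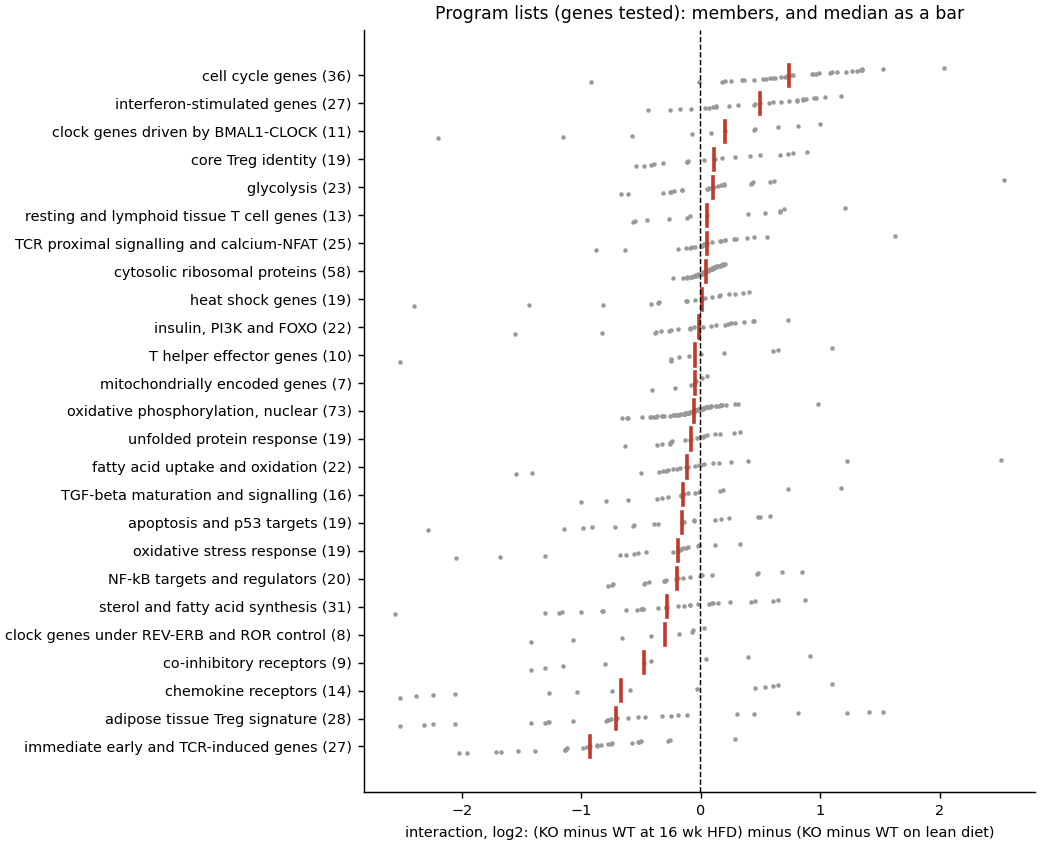
Interaction in log2 (horizontal axis) of every measured member of 25 program lists (points, with the number of genes in brackets) and each list's median (red bar), ordered by median, with the dashed line at the median of all genes. Immediate early genes lie lowest at -0.92 and cell cycle genes highest at 0.74.

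Cell cycle genes leaned to a positive interaction. The value was above 0 for 34 of 36 members, with a median of 0.74, and 6 (16.7%) had an unadjusted p under 0.05 against 3.8% of all genes. None passed adjustment in the interaction or in either diet response. At 16 weeks KO exceeded WT in all 36, with a median log2 of 0.78 and 17 at an unadjusted p under 0.05 against 3.16% of all genes. E2f2, a transcription factor of S phase entry, led the list. E2f2 was at 30.8, 37.5 and 24.6 CPM in the lean WT libraries and at 20.8, 12.5 and 26.6 CPM in the 16-week WT libraries. The KO libraries held 31.7, 31.4 and 25.4 CPM on lean diet and 42.5, 40.9 and 38.8 CPM at 16 weeks. KO lay above WT at 16 weeks without overlap, and the interaction was log2 1.10 ± 0.33, adjusted p = 0.319. Ccna2, which encodes cyclin A2 and overlaps Exosc9 on the opposite strand, was at 16.5, 22.1 and 19.6 CPM in WT and 69.3, 35.1 and 41.1 CPM in KO at 16 weeks, with lean values of 26.0, 29.4 and 40.1 CPM and 31.0, 40.6 and 22.6 CPM. The list mean was 4.62, 5.25 and 4.45 log2 CPM in lean KO, where replicate 2 stood above the others, and 5.61, 5.04 and 5.18 in KO at 16 weeks. In WT it was 4.76, 4.68 and 4.93 and 4.34, 4.37 and 4.71. The median interaction ran from 0.58 to 1.08 when each library was left out. Members with an unadjusted p under 0.05 numbered 14 without KO lean replicate 2, 3 without WT lean replicate 3 or KO lean replicate 1, and 2 without KO lean replicate 3, WT 16-week replicate 1 or KO 16-week replicate 1.

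The promoters of cell cycle genes are known for CCAAT boxes and for the cell cycle genes homology region (CHR), TTTGAA. Of 29 members matched to a RefSeq promoter, 24 (82.8%) held CCAAT against 37.5% of all genes, and 9 (31%) held TTTGAA against 18.3%. Neither share was particular to this list. CCAAT was in 86.4% of matched sterol synthesis and 88.2% of unfolded protein response promoters, and in 12.5% for T helper effector genes. TTTGAA was in 46.2% for core Treg identity and 0% for the unfolded protein response. The promoter of Ccnb2, which encodes cyclin B2, is shown as an example of both sequences (chr9:70421555-70421804, minus strand, GRCm38.p6, CCAAT and TTTGAA in capitals). Its TTTGAA ends 162 bases before the start, upstream of the CCAAT matches at 83, 50 and 17 bases. Whether that TTTGAA is a working CHR was not tested. The interaction of Ccnb2 was -0.01 ± 0.63, the lowest of the list but for E2f1.
Ccnb2: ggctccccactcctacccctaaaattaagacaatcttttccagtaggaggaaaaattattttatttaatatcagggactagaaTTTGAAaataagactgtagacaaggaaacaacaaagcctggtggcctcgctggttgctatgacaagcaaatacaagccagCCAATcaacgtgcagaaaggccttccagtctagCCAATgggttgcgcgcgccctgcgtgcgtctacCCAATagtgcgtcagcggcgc

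Sterol and fatty acid synthesis genes fell with diet, 17 of 31 measured members in KO and 3 in WT (among them Srebf2), against 3.59% and 0.0598% of all genes, with median diet log2 values of -0.89 and -0.73. The median interaction was -0.29, with 8 members (25.8%) at an unadjusted p under 0.05 below 0, against 4.68% of all genes. Hmgcs1, an early enzyme of the mevalonate pathway, was at 239, 170.2 and 161 CPM in lean KO and 44.7, 40.9 and 38.5 CPM in KO at 16 weeks, and at 129, 92.5 and 96.1 and 58.9, 41.9 and 53.3 CPM in WT. Its diet groups did not overlap in either genotype, the diet log2 was -1.04 ± 0.26 in WT (adjusted p = 0.148) and -2.20 ± 0.27 in KO (adjusted p = 4.82e-05), and the interaction was log2 -1.16 ± 0.37, adjusted p = 0.357. Srebf2, which encodes the factor that drives these genes, had diet log2 values in WT (-0.96 ± 0.13) and KO (-1.10 ± 0.13), and an interaction of -0.14 ± 0.18. The list's median interaction was -0.07 without WT lean replicate 3, -0.14 without KO lean replicate 1 and -0.16 without WT 16-week replicate 2, and the WT calls were 1 without WT lean replicate 1 or WT 16-week replicate 1 or 3.

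Interferon-stimulated genes rose in KO in 7 of 27 measured members (among them Parp14, Ddx58, Gbp2, Oas3, Rtp4 and Oas1a) and in WT in none, against 2.36% and 0.0256% of all genes. The median diet log2 was 0.71 in KO and 0.44 in WT, and the median interaction 0.50, with 3 members (11.1%) at an unadjusted p under 0.05 above 0, against 3.8% of all genes. List means were 4.94, 4.79 and 5.19 log2 CPM in lean KO and 5.78, 5.91 and 5.88 in KO at 16 weeks, and 4.72, 5.51 and 5.26 in lean WT. Without KO lean replicate 1 the risen count was 4. The median interaction was 0.23 without WT lean replicate 2 and 0.31 without WT 16-week replicate 2. List means in WT at 16 weeks were 5.80, 4.99 and 5.89 log2 CPM, with replicate 2 low.

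Among signalling genes, Nfkbiz and Nfkbia, IkB family members that NF-kB itself induces, fell in KO and had interactions of -0.78 ± 0.22 and -0.75 ± 0.23. Of 20 listed NF-kB genes, 4 rose and 4 fell in KO, against 2.36% and 3.59% of all genes, and none passed in WT, and the median interaction was -0.20. The cell cycle inhibitor gene Cdkn1a, a p53 target, was at 295, 351 and 301 CPM in lean KO and 126, 125 and 103 CPM in KO at 16 weeks, without overlap. Its WT values were 203, 142 and 159 and 93.5, 176 and 104 CPM, and the interaction was log2 -0.99 ± 0.27, adjusted p = 0.314. Irs2, an adaptor of the insulin receptor, fell in KO (log2 -1.33 ± 0.30) and had an interaction of log2 -1.56 ± 0.42, adjusted p = 0.314. Pik3cd, the PI3K catalytic subunit of lymphocytes, went the other way (log2 0.73 ± 0.21, adjusted p = 0.314). Sqstm1, the autophagy adaptor p62, crossed without overlap, with a small interaction of log2 -0.53 ± 0.14, adjusted p = 0.269.

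The remaining programs are given by their medians, beside -0.01 over all genes. The median interaction was 0.04 for 58 cytosolic ribosomal proteins, -0.05 for 73 nuclear oxidative phosphorylation genes, -0.05 for 7 mitochondrially encoded genes, -0.08 for 19 unfolded protein response genes and 0.05 for 25 genes of T cell receptor signalling. Glycolysis had 0.10 over 23 genes, fatty acid uptake and oxidation -0.12 over 22, TGF-beta maturation and signalling -0.15 over 16, apoptosis and p53 targets -0.15 over 19, the oxidative stress response -0.19 over 19 and insulin, PI3K and FOXO genes -0.015 over 22. T helper effector genes had -0.05 over 10 measured of 19 listed. The 9 co-inhibitory receptors had -0.47, the 11 measured BMAL1-driven clock genes 0.20 and the 8 REV-ERB and ROR targets of the clock -0.30. Of the co-inhibitory receptors, 4 (44.4%) had a negative interaction at an unadjusted p under 0.05, against 4.68% of all genes, and none passed adjustment. Klrg1 is on this list and on the adipose Treg signature. Of the ribosomal, mitochondrially encoded, heat shock and unfolded protein response members, 0 had an interaction at an unadjusted p under 0.05, and none was called.

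**Figure D5:**
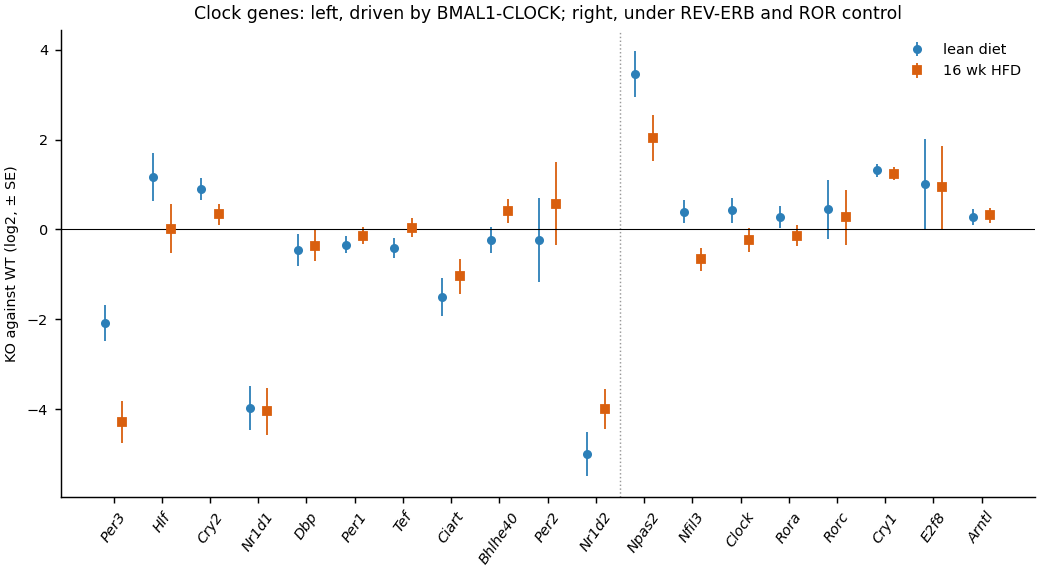
KO against WT in log2 with its standard error (vertical axis) for 19 measured clock genes, on lean diet (blue circles) and at 16 weeks of high fat diet (orange squares), each ordered by interaction within its list. Nr1d1 and Nr1d2 lie near -4 or below in both diets, while Per3 lies at -2.08 on lean diet and -4.28 at 16 weeks and Npas2 at 3.46 and 2.04.

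Of the 19 measured clock genes, 4 passed KO against WT on lean diet, Cry1 and Npas2 higher and Nr1d1 and Nr1d2 lower, and 4 passed at 16 weeks, Cry1 higher and Nr1d1, Nr1d2 and Per3 lower. Of all genes 0.0427% passed in each diet. The interaction test called none of the 19. Arntl was at 76.5, 70.4 and 65.7 CPM in lean WT and 103, 79.1 and 75.8 CPM in lean KO, and at 79.9, 77.5 and 56.4 and 92.0, 91.4 and 83.2 CPM at 16 weeks. Since the removed part is not given, these counts do not check the knockout. Nr1d1, encoding REV-ERB alpha, was at 46.2, 26.4 and 40.1 CPM in lean WT and 20.2, 31.7 and 16.1 CPM in WT at 16 weeks. In KO it was at 4.48, 1.08 and 0.942 and 2.20, 1.16 and 0.663 CPM, where 3 counts correspond to 0.853 to 1.63 CPM. KO was below WT in both diets (log2 -3.98 ± 0.49, adjusted p = 0.000354, and -4.05 ± 0.52, adjusted p = 0.000478), and the interaction was -0.07 ± 0.61. Cry1, a repressor that REV-ERB holds down, was higher in KO in both diets (log2 1.32 ± 0.14 and 1.24 ± 0.14), with an interaction of -0.08 ± 0.20.

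Per3 and Npas2 had the largest interactions in size of the 19 clock genes. Per3, a period gene, was at 3.36, 3.79 and 6.12 CPM in lean KO and 1.47, 0.386 and 1.33 CPM in KO at 16 weeks, at or near 3 counts. WT held 13.5, 22.6 and 20.3 CPM and 27.9, 19.5 and 17.9 CPM, and the interaction was log2 -2.20 ± 0.64, adjusted p = 0.314. The diet fall in KO passed the test (log2 -1.99 ± 0.54, adjusted p = 0.0309). Npas2, the CLOCK paralog, was at 52.6, 56.9 and 57.0 CPM in lean KO and 14.7, 21.2 and 11.6 CPM in KO at 16 weeks, and at 9.14, 0 and 6.28 and 2.84, 5.12 and 3.50 CPM in WT. Every KO library exceeded every WT library in both diets, and the KO diet fall passed (log2 -1.81 ± 0.43, adjusted p = 0.0143), while the interaction was log2 -1.42 ± 0.74, adjusted p = 0.619. Nfil3, a factor repressed by REV-ERB and a member of the adipose list, had an interaction of log2 -1.07 ± 0.37, adjusted p = 0.418. Bhlhe40, a repressor induced by many stimuli, rose in KO (log2 1.52 ± 0.29, adjusted p = 0.00289), with an interaction of 0.65 ± 0.40. Of the other measured clock genes, interactions ran from -1.15 (Hlf) to 1.00 (Nr1d2), and Bhlhe41 did not pass the filter on low counts. The E-box CACGTG was in 3 of 9 matched promoters of the BMAL1-driven list (33.3%), against 6.86% of all genes with a promoter. Apoptosis and p53 targets held it in 26.7%, and a match is not a bound site.

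At 4 weeks of high fat diet, at the same age as the lean groups, the interaction called no gene by edgeR or DESeq2 and 534 genes (4.56%) had an unadjusted p under 0.05. The 2 interactions share the lean libraries, so values are given side by side. For the immediate early list the median interaction was -0.35 at 4 weeks, with 7 members at an unadjusted p under 0.05 below 0 against 2.18% of all genes, and -0.92 at 16 weeks. KO against WT had a median of 0.49 on lean diet, 0.08 at 4 weeks and -0.45 at 16 weeks. List means at 4 weeks were 8.43, 7.97 and 8.30 log2 CPM in KO and 8.21, 8.11 and 8.17 in WT, where the genotypes overlapped. The adipose Treg signature had a median interaction of -0.05 at 4 weeks, with list means of 7.14, 7.14 and 7.09 in KO and 6.77, 7.06 and 6.88 in WT.

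The change in the genotype difference from 4 to 16 weeks, which shares the 16-week libraries with the 16-week interaction, was tested directly and called no gene (0%), with a smallest adjusted p of 0.249 and 784 genes (6.7%) at an unadjusted p under 0.05. DESeq2 called 1 gene, Ccr3, and leaving out WT 16-week replicate 1 gave 3 calls, Ccr3, Lyn and the chemokine gene Cxcl2. On the adipose list 12 members had a negative value at an unadjusted p under 0.05 against 3.99% of all genes, with a median of -0.69, and on the immediate early list 9 did, with a median of -0.58. Ccr3 had a log2 of -2.26 ± 0.41 in that comparison and Fos -0.94 ± 0.31. The 4-week interactions of Mbp and Atp11b were 0.82 and 1.17, beside 16-week values of 0.82 and 1.36.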

How the data were processed

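Gene counts of 22 RNA-seq libraries were taken as the authors deposited them: whole-number counts for 55011 symbols, made with STAR 2.7.3a and featureCounts on mm10 per the submitters' processing notes (the version of featureCounts and its strand option: not given in the sources used here). Per the labels' protocols, RNA was reverse transcribed from oligo(dT), amplified by PCR and tagmented with Nextera XT, which does not mark strand, so overlapping genes on opposite strands cannot be told apart. Floors (3 counts per library) cover counting error only. Values after ± are standard errors of the quasi-likelihood fit for log2, which include the spread between libraries, and SDs between libraries for CPM.

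The 18 diet libraries were fitted together in edgeR 4.0.16 (R 4.3.3) with TMM scaling, filterByExpr (minimum count 10) and the quasi-likelihood test, leaving 12 residual degrees of freedom. p values were adjusted by Benjamini-Hochberg over 11698 genes and called under 0.05. The 4 cell transfer libraries were not used. Lists are described by counts and medians, beside all genes. Members and lists were chosen with earlier results of these data known. Genes named are the 8 smallest interaction p values per direction, up to 4 smallest per list and all measured clock genes, leaving out predicted genes and those under 5 CPM in every group. Other list members named as examples were chosen after their values were seen. Alternatives were RLE scaling, no filter, a minimum count of 30, only the 12 libraries, DESeq2 1.42.0, a replicate block and leaving out each library. Gene coordinates are from GENCODE M21. The fits were tested on simulated data. Some members of the lists are counted but not reported here by name.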

Additional observations from a re-analysis of the deposited data

How the results depend on the processing

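RLE scaling and a minimum count of 30 left all 7 counts of called genes within 1.5 times the value reported. DESeq2 called 26 genes for the 16-week interaction, 82 for diet in WT, 24 for KO against WT on lean diet, 47 for KO against WT at 16 weeks and 1 for the change from 4 to 16 weeks. Without a filter on low counts these were 258, 178, 135, 428 and 211, with 1085 for diet in KO and 22 for the 4-week interaction. Of the 258, 255 had passed the filter of the reported fit. With only the 12 libraries, KO against WT at 16 weeks called 12.

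Leaving out each library gave 0 to 36 calls for the 16-week interaction, 3 to 28 for diet in WT, 373 to 781 for diet in KO, 4 to 11 for KO against WT on lean diet, 4 to 35 at 16 weeks and 0 to 3 for the change from 4 to 16 weeks. Leaving out WT 16-week replicate 1 and KO lean replicate 1 together, chosen after seeing the data, gave 25, 6, 489, 8, 28 and 2. The cause of these changes was not tested.

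Same-numbered libraries were not paired by the labels, and their deviations correlated at -0.089 to 0.172 over 9 pairs, 2 of them over 0.1, and 3 of 9 WT and 3 of 9 KO libraries correlated best with the library of their own number. With the replicate number as a block the calls were 11 for the 16-week interaction, 51 for diet in WT, 587 for diet in KO, 10 for KO against WT on lean diet, 8 at 16 weeks and 3 for the change from 4 to 16 weeks.

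Depth limits low genes: 3 counts were 0.853 to 1.63 CPM, so Per3, Nr1d1 and Cip2a in several libraries rest on few reads.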
